A study of Mus musculus with 18 samples.

Results

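Described here are 5 mouse genes through which the oocyte builds its coat and signals to the follicle, namely Zp1, Zp2 and Zp3 of the zona pellucida and the growth factor genes Gdf9 and Bmp15. They were chosen by name, as the genes with these symbols in the deposited table of TPM (a transcript level corrected for the length of the gene, which adds up to 1000000 in every library), and all 5 were found among its 28252 genes and among the 53715 genes with counts. The zona pellucida is the glycoprotein coat that the growing oocyte secretes around itself and to which sperm bind. Zp2 and Zp3 encode proteins of its filaments, and Zp1 encodes the protein that cross-links them. Gdf9 and Bmp15 encode related growth factors of the TGF-beta family that the oocyte releases to the granulosa cells of its follicle.

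RNA was sequenced from 18 libraries of mouse oocytes, 3 in each of 6 groups, to compare oocytes of 3 stages between sham animals and a group labelled NTY, a name that the labels do not explain. The stages were resting oocytes of primordial follicles, oocytes of primary follicles, which have begun to grow, and MII oocytes, which have finished growth and are arrested in metaphase of meiosis. The labelled protocol describes RNA of laser-microdissected cells, pooled by stage, amplified and prepared with TruSeq RNA Access, and Smart-seq II for oocytes that were collected. From it the 12 primordial and primary libraries were read as microdissected and the 6 MII libraries as collected, which means that between MII and the earlier stages an effect of stage and an effect of library method cannot be told apart. All 6 groups (primordial sham, primordial NTY, primary sham, primary NTY, MII sham and MII NTY) carried the strain label C57Bl/6j x CBA/J and were marked in vivo. Genotype, age and time since treatment are not given in the sources used here. Nothing in the labels says that the 3 libraries of a group came from separate animals, so the p-values measure only the spread between these libraries, which may be technical.

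Total counts ranged from 15149564 to 29205503 in the 12 microdissected libraries (median 23471320) and from 8652089 to 9978830 in the 6 MII libraries (median 9118278). A count of 0 allows a level of up to 3 counts, which was 0.103 to 0.198 CPM (counts scaled to 1000000 per library) in the microdissected libraries and 0.301 to 0.347 CPM in the MII libraries. These limits cover counting error only.

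Replicate 3 of primordial NTY stood apart before any comparison was made. Among its 27012288 counts it held 0 of Zp1, 10 of Zp2, 1 of Zp3, 4 of Gdf9 and 0 of Bmp15, and the 5 genes together came to 0.811 TPM, against 14.9 to 957 TPM in the other 11 microdissected libraries. Its 8 oocyte markers summed to 2.13 TPM, with Nobox the most abundant at 1.20 TPM and with Figla, Sohlh1 and Sycp3 at 0 counts, whereas the other 11 microdissected libraries summed to between 48.9 and 969.9 TPM. In the same library 10 granulosa markers summed to 3451 TPM, led by Inha at 1914 TPM, though Foxl2 was at 2.84 TPM and Amhr2, Fshr, Kitl, Hsd17b1 and Cyp19a1 at 0, and 6 stroma and theca markers to 5802 TPM, led by Col1a1 at 4622 TPM. For NTY against sham in primordial follicles and primary against primordial follicles in NTY, the log2 fold changes of the members are given with and without it, and other values over these libraries include it. Markers of other cells were present in the rest of the microdissected libraries too. The granulosa sum ran from 369.6 to 3695 TPM and the stroma and theca sum from 460.1 to 7486 TPM over the 12, against 24.4 to 54.4 TPM and 0 to 1.29 TPM over the 6 MII libraries. In such bulk samples fewer oocyte cells and less RNA per oocyte cannot be told apart. Oocyte markers also went apart within some libraries. Primary sham replicate 2 held 4 counts of Dazl beside 3716 of Ddx4, and primary NTY replicate 2 held 4 of Ddx4 beside 2723 of Dazl. Primary sham replicate 1 held 8204 and 3042 of them. Genes with a count numbered 6147 to 13755 in the microdissected and 12782 to 18239 in the MII libraries. The cause of these differences was not tested.

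Zp1, the cross-linking component, was at 278, 322 and 49.8 TPM in primordial sham replicates 1 to 3 and at 4.74, 151 and 0 TPM in primordial NTY. In primary sham it was at 60.4, 173 and 101 TPM and in primary NTY at 1.27, 5.79 and 122.6 TPM. In MII sham it was at 74.0, 140.3 and 119 TPM and in MII NTY at 131, 127 and 39.7 TPM. The microdissected libraries therefore spanned the MII range and went both above and below it. By mean TPM the order was primordial sham (217 ± 146, SD, n = 3), primary sham (112 ± 57.1), MII sham (111 ± 33.8), MII NTY (99.3 ± 51.7), primordial NTY (51.9 ± 85.9) and primary NTY (43.2 ± 68.8), and the libraries of every pair of neighbours in that order overlapped.

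Zp2, a filament component that binds sperm, was the least abundant of the zona genes in 5 of the 6 MII libraries, all but NTY replicate 3. It was at 9.80, 37.1 and 6.16 TPM in primordial sham and at 6.68, 8.12 and 0.466 TPM in primordial NTY. In primary sham it was at 22.3, 12.7 and 15.7 TPM and in primary NTY at 5.68, 9.60 and 22.4 TPM. In MII sham it was at 15.2, 69.6 and 55.1 TPM and in MII NTY at 41.0, 109 and 43.4 TPM. Apart from MII sham replicate 1, every MII library exceeded all 12 microdissected libraries. The group means fell in the order MII NTY (64.6 ± 38.8), MII sham (46.6 ± 28.2), primordial sham (17.7 ± 16.9), primary sham (16.9 ± 4.90), primary NTY (12.5 ± 8.72) and primordial NTY (5.09 ± 4.07 TPM), again with overlapping neighbours throughout.

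Zp3, the other filament component, was at 19.4, 187 and 7.40 TPM in primordial sham and at 4.96, 33.6 and 0.0958 TPM in primordial NTY. In primary sham it was at 59.2, 59.9 and 73.0 TPM and in primary NTY at 5.80, 20.2 and 60.6 TPM. In MII sham it was at 328, 237 and 499 TPM and in MII NTY at 359.8, 501 and 157 TPM. Only primordial sham replicate 2 reached the MII range, and the 3 primary sham libraries lay closest together. Group means ran from MII sham (355 ± 133) and MII NTY (339 ± 173) through primordial sham (71.3 ± 100.5), primary sham (64.0 ± 7.76) and primary NTY (28.9 ± 28.4) to primordial NTY (12.9 ± 18.1 TPM), and neighbours in this order overlapped.

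The make-up of the zona transcripts differed between libraries. Zp3 gave 53.1 to 78.6% of the summed TPM of Zp1, Zp2 and Zp3 in the 6 MII libraries, and 6.31 to 56.7% (median 29.9%) in the 12 microdissected libraries. Zp1 gave 16.5 to 31.4% in MII oocytes, whereas its share ran from 0 to 90.5% (median 56.1%) in the microdissected libraries. It was the most abundant of the 3 in each primordial sham library, at 90.5, 58.9 and 78.6%, and in each primary sham library, at 42.6, 70.5 and 53.3%. In primordial NTY the Zp1 share was 29.0, 78.4 and 0%, and in primary NTY 9.96, 16.3 and 59.6%. The ratio of Zp1 to Zp3 by TPM ran from 0 in primordial NTY replicate 3 to 14.3 in primordial sham replicate 1 and was 0.225 to 0.591 in MII oocytes. Primary NTY replicates 1 and 2, at 0.219 and 0.287, also lay below or within the MII range. Whether stage or library method sets this difference in make-up cannot be told apart.

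**Figure D1:**
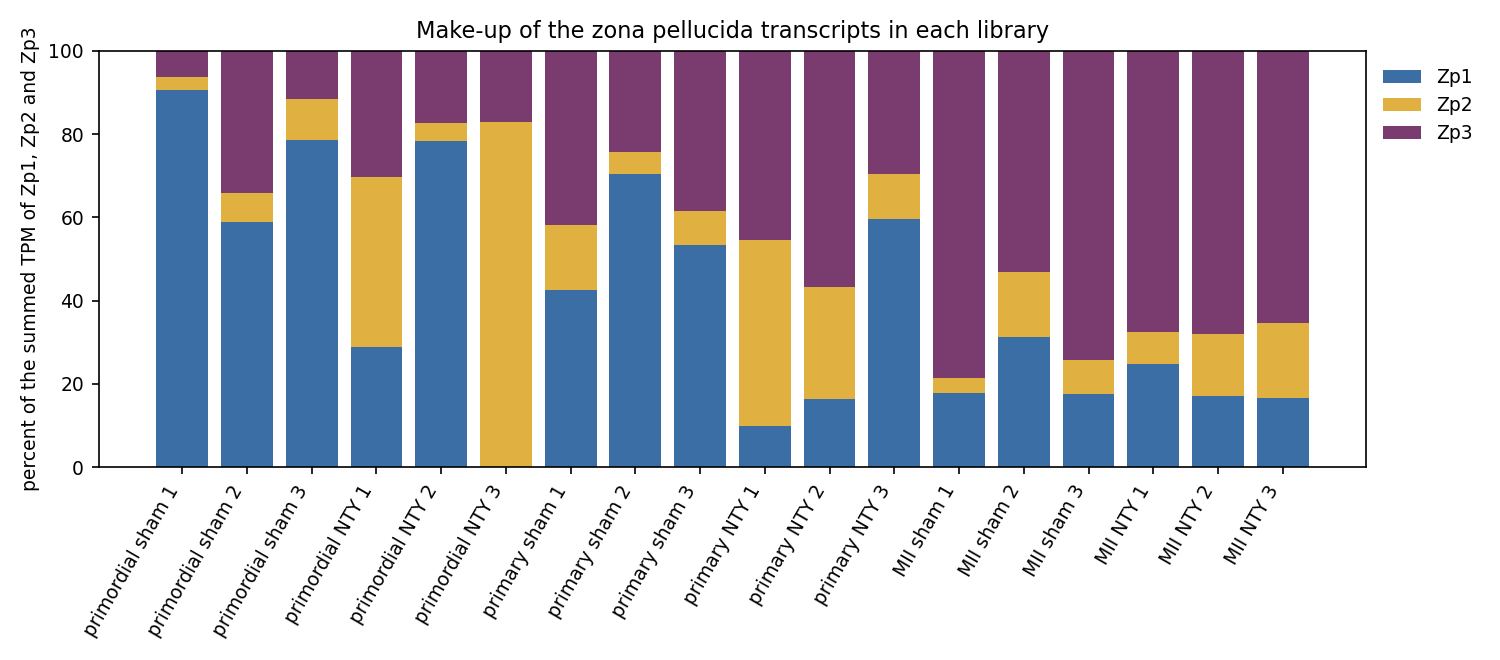
Percent of the summed TPM of Zp1, Zp2 and Zp3 that each gene gave, as stacked bars from 0 to 100% with 1 bar for each of the 18 libraries. Zp3 fills 53.1 to 78.6% of the bar in the 6 MII libraries, while the Zp1 part runs from 0 to 90.5% across the 12 microdissected libraries.

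Gdf9, which encodes the oocyte factor that granulosa cells need to multiply and mature, was the most abundant of the 5 genes in every MII library. In primordial sham it was at 3.34, 408 and 0.382 TPM (32, 7061 and 5 counts) and in primordial NTY at 2.35, 109 and 0.250 TPM (32, 1564 and 4 counts). In primary sham it was at 148, 68.8 and 135 TPM and in primary NTY at 2.11, 67.1 and 152 TPM. In MII sham it was at 4976, 7563 and 7601 TPM and in MII NTY at 5546, 7844 and 4762 TPM, ranking between place 13 and place 28 among all genes of its library. In the microdissected set, 5 libraries held 4 to 34 counts of Gdf9 and the other 7 held 974 to 7061 counts. These 5 were replicates 1 and 3 of both primordial groups and replicate 1 of primary NTY, while all 3 primary sham libraries were among the 7. Group means ran from MII sham (6713 ± 1504) and MII NTY (6051 ± 1602) to primordial sham (137 ± 235), primary sham (117 ± 42.6), primary NTY (73.8 ± 75.3) and primordial NTY (37.0 ± 61.9 TPM), with no overlap at the step from MII NTY to primordial sham and overlap at every other step.

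Bmp15, the X-linked relative of Gdf9, was the least abundant of the 5 genes by mean TPM in each microdissected group. Primordial sham libraries held 0, 69 and 6 counts of Bmp15 (0, 2.65 and 0.305 TPM) and primordial NTY libraries 0, 49 and 0 counts (0, 2.26 and 0 TPM). Primary sham libraries held 83, 34 and 97 counts (3.93, 1.47 and 3.94 TPM) and primary NTY libraries 0, 16 and 39 counts (0, 0.731 and 1.59 TPM). MII sham libraries held 4720, 5386 and 5543 counts (365, 499.8 and 555 TPM) and MII NTY libraries 2629, 5805 and 5331 counts (251, 546 and 513 TPM). Each of the 4 libraries without a Bmp15 count was also among the 5 with 4 to 34 counts of Gdf9. The mean level was 473 ± 97.9 TPM in MII sham, 437 ± 162 in MII NTY, 3.11 ± 1.42 in primary sham, 0.984 ± 1.45 in primordial sham, 0.774 ± 0.796 in primary NTY and 0.752 ± 1.30 in primordial NTY, and the libraries failed to overlap only between MII NTY and primary sham.

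**Figure D2:**
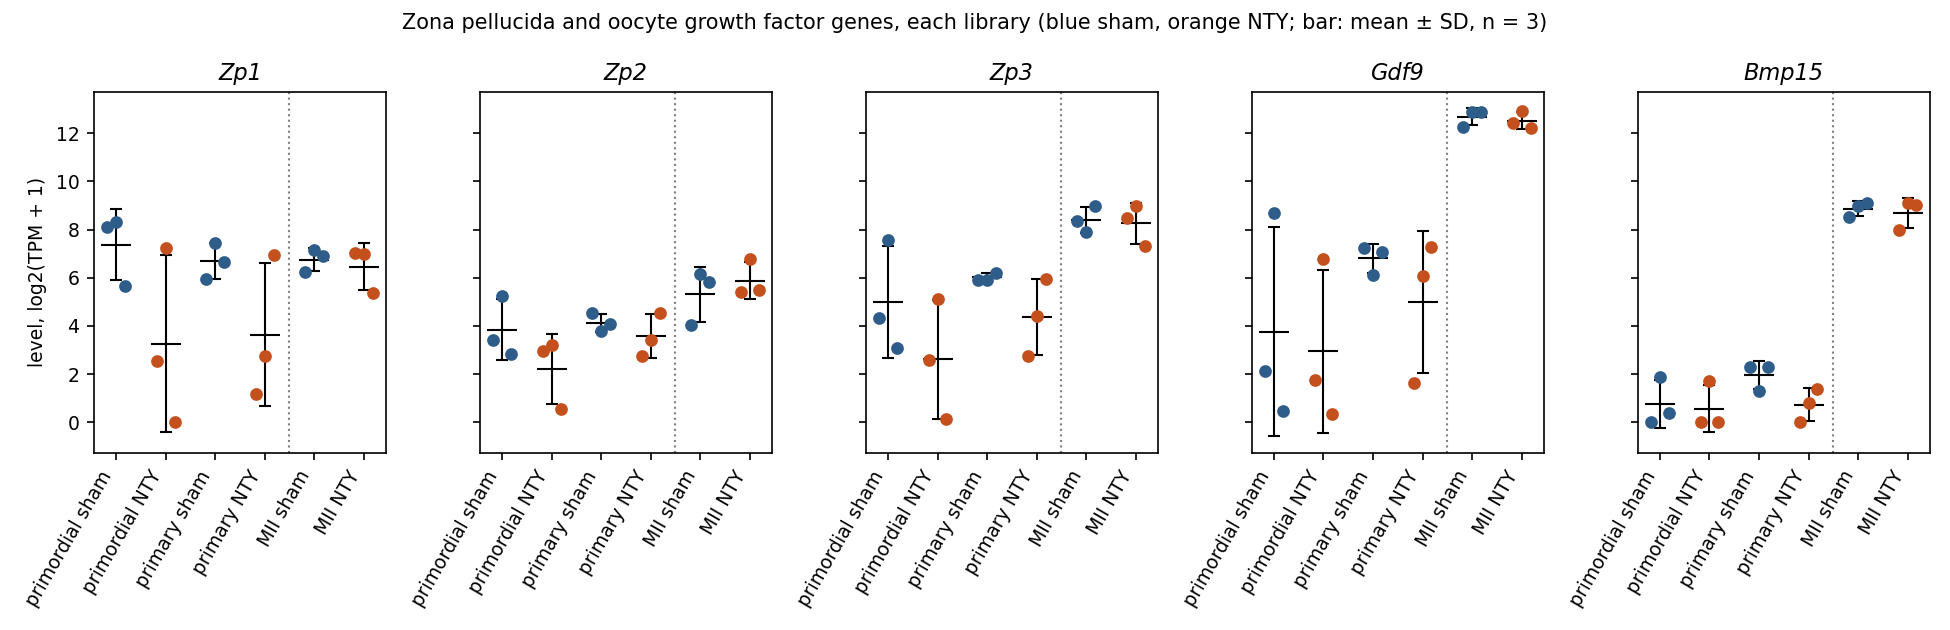
Level of each gene in each of the 18 libraries as log2(TPM + 1), with points for libraries (blue sham, orange NTY), a horizontal bar for the group mean and an error bar of 1 SD over 3 libraries; a dotted line separates microdissected from MII libraries. Gdf9 and Bmp15 of all MII libraries lie above all microdissected ones, and Zp1 of the MII libraries (39.7 to 140.3 TPM) lies within the range of the microdissected ones (0 to 322 TPM).

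The balance of the 2 growth factor transcripts varied between libraries. By TPM, Bmp15 was 0.0453 to 0.108 of Gdf9 in the 6 MII libraries, and 0.0213 to 0.0292 of it in the 3 primary sham libraries. In the other microdissected libraries it was 0 to 0.0208 of Gdf9, apart from 0.796 in primordial sham replicate 3, which rests on 6 counts of Bmp15 and 5 of Gdf9. The values of 0 rest on 0 counts of Bmp15 beside 4 to 34 counts of Gdf9. For those libraries 0.0208 is therefore no upper limit. Gdf9 was 15.2 to 31.9 times Zp3 in MII oocytes and 0.0517 to 3.32 times Zp3 in the microdissected libraries. Together the 5 genes made up 0.552 to 0.913% of all TPM in MII libraries and 8.11e-05 to 0.0957% in microdissected ones.

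Oocytes of primordial follicles were compared between NTY and sham to find whether the treatment group differs at the resting stage. All 5 genes had the lower mean TPM in NTY, but none passed the test. The log2 fold change of NTY against sham in edgeR's quasi-likelihood test was -2.33 ± 2.72 (SE) for Zp1, -1.94 ± 2.81 for Zp2, -2.73 ± 2.92 for Zp3, -2.18 ± 2.77 for Gdf9 and -0.68 ± 2.55 for Bmp15, beside a median of 0.12 over all genes tested. The adjusted p ran from 0.818 to 0.971, with 0 of 5 at an unadjusted p under 0.05, and DESeq2 also called 0 of 5. Over 10522 genes edgeR called 1 (0.00950%) and DESeq2 called 1201 (11.4%). The libraries of NTY and sham overlapped for all 5 genes by TPM, as they did for all but 7.98% of genes. Without NTY replicate 3 the log2 fold changes were -1.87 for Zp1, -1.49 for Zp2, -2.21 for Zp3, -1.65 for Gdf9 and -0.15 for Bmp15. Without sham replicate 2, which held 7061 counts of Gdf9, Gdf9 turned to 3.995 and Bmp15 to 1.95, while Zp1 stayed at -1.98, Zp2 at -0.82 and Zp3 at -0.34. Without NTY replicate 2 the values went the other way, to -6.54 for Zp1, -2.30 for Zp2, -4.85 for Zp3, -6.69 for Gdf9 and -7.45 for Bmp15. Granulosa marker sums overlapped, with 1719 to 3695 TPM in NTY and 369.6 to 2202 TPM in sham. edgeR called none of 8 granulosa, 6 stroma and theca and 8 oocyte markers (3, 0 and 0 at an unadjusted p under 0.05) and DESeq2 only Inha, with edgeR list median log2 fold changes of 2.00 for granulosa, 1.16 for stroma and theca and -1.23 for oocyte markers. Their part in the values of the members was not tested.

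In oocytes of primary follicles the same comparison gave differences smaller than their errors. The log2 fold change of NTY against sham was -1.13 ± 2.62 for Zp1, 0.05 ± 2.71 for Zp2, -0.74 ± 2.75 for Zp3, -0.17 ± 2.65 for Gdf9, whose sign turned with RLE size factors (0.23), and -1.48 ± 2.59 for Bmp15, beside a median of -0.10 over all genes. In edgeR the adjusted p was 1.0 for each gene, 0 of 5 had an unadjusted p under 0.05, and DESeq2 called 0 of 5. Over 10522 genes edgeR called 0 (0%, with 858 at an unadjusted p under 0.05) and DESeq2 693 (6.59%). The groups overlapped for all 5 genes by TPM, while 14.9% of genes did not overlap. For Zp2 the fold of 0.05 and the mean TPM (12.5 in NTY, 16.9 in sham) differ in direction. NTY replicate 3 carried most of the NTY counts of Zp1 (1947), and without it Zp1 was at -4.51, Zp2 at -0.54, Zp3 at -1.73, Gdf9 at -1.08 and Bmp15 at -2.38. Without NTY replicate 1 Gdf9 was at 0.39, and without sham replicate 3 Zp2 was at -0.03. The edgeR list median log2 fold changes were 0.79 for oocyte, -0.22 for granulosa (0.19 in DESeq2) and 1.44 for stroma and theca markers. None was called (0, 0 and 1 at an unadjusted p under 0.05). NTY replicate 1, where the 5 genes came to 14.9 TPM, held the highest stroma and theca sum of the microdissected libraries, 7486 TPM. The part of these markers in the values of the members was not tested. The codes of NTY replicates 2 and 3 are alike, and whether these share material is not known.

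MII oocytes gave the comparison of the treatment groups with the smallest standard errors, and no member passed the test. The log2 fold change of NTY against sham was -0.14 ± 0.42 (SE) for Zp1, 0.55 ± 0.52 for Zp2, -0.11 ± 0.43 for Zp3, -0.12 ± 0.23 for Gdf9 and -0.07 ± 0.33 for Bmp15, beside a median of 0.00 over all genes. The adjusted p in edgeR was 1.00 for each, 0 of 5 had an unadjusted p under 0.05, and DESeq2 called 0 of 5. Over 12209 genes edgeR called 0 (0%, with 280 at an unadjusted p under 0.05) and DESeq2 29 (0.238%), and the groups failed to overlap for 0 of 5 members and 7.56% of genes. Leaving out NTY replicate 3 turned Zp1 to 0.21 and Zp3 to 0.19, leaving out sham replicate 3 turned Zp3 to 0.10, and leaving out NTY replicate 1 turned Bmp15 to 0.19. Zp2 kept its sign but was at 0.07 without NTY replicate 2, at 0.19 without sham replicate 1 and at 0.84 without sham replicate 2.

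Ratios within a library do not depend on how libraries are scaled. In MII oocytes the log2 ratio of Zp1 to Zp3 was -1.81 ± 0.31 (SD) in NTY and -1.66 ± 0.78 in sham, a difference of -0.15. The log2 ratio of Zp2 to Zp3 was -2.39 ± 0.66 in NTY and -3.13 ± 1.33 in sham, a difference of 0.73. The log2 ratio of Bmp15 to Gdf9 was -3.84 ± 0.63 in NTY and -3.82 ± 0.09 in sham, a difference of -0.02. The exact two-sided permutation p for these 3 ratios was 1.0, 0.6 and 1.0, and each was 1.0 after adjustment, where 0.1 is the smallest that 3 libraries against 3 can give. The Bmp15 to Gdf9 ratio spread more widely in NTY, where it was 0.0453, 0.0696 and 0.108 by TPM, than in sham, where it was 0.0734, 0.0661 and 0.0731, and this difference in spread was not tested.

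Primary were compared with primordial follicles to follow the genes over the start of oocyte growth. In sham the log2 fold change of primary against primordial was -1.07 ± 2.62 for Zp1, -0.35 ± 2.71 for Zp2, -0.40 ± 2.74 for Zp3, -0.55 ± 2.66 for Gdf9 and 1.32 ± 2.58 for Bmp15, beside a median of 0.29 over all genes. In edgeR the adjusted p was 1.0 for each, with 0 of 5 at an unadjusted p under 0.05 and 0 of 5 called by DESeq2. Over 10522 genes edgeR called 1 (0.00950%) and DESeq2 767 (7.29%), and groups did not overlap for 0 of 5 members and 15.1% of genes. Primordial sham replicate 2 decided the sign of 3 genes, since without it Zp2 was at 0.72, Zp3 at 1.95 and Gdf9 at 5.58, while Bmp15 was at 3.89, each with an adjusted p in edgeR of at least 0.595.

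In NTY the log2 fold change of primary against primordial was 0.13 ± 2.59 for Zp1, 1.64 ± 2.78 for Zp2, 1.60 ± 2.81 for Zp3, 1.47 ± 2.71 for Gdf9 and 0.52 ± 2.54 for Bmp15, beside a median of 0.08 over all genes. None passed the test in edgeR (adjusted p 0.926 to 1.0), 0 of 5 had an unadjusted p under 0.05, and DESeq2 called 0 of 5. Over 10522 genes edgeR called 0 (0%, with 1049 at an unadjusted p under 0.05) and DESeq2 1121 (10.7%), and groups did not overlap for 0 of 5 members and 7.44% of genes. Without primordial NTY replicate 3 Zp1 was at -0.43, Zp2 at 1.17, Zp3 at 1.07, Gdf9 at 0.96 and Bmp15 at 0.01. Without primordial NTY replicate 2 they were higher, at 4.34 for Zp1, 1.99 for Zp2, 3.71 for Zp3, 5.97 for Gdf9 and 7.28 for Bmp15. For Zp1 the fold of 0.13 and the mean TPM (43.2 in primary, 51.9 in primordial) differ in direction. The fold of Zp1 was -0.42 without primordial NTY replicate 1 and -3.25 without primary NTY replicate 3, where Bmp15 was at -0.08 and -0.38. The test of the NTY effect between stages, primary minus primordial, called 0 of 5 genes in edgeR (adjusted p 0.944 to 0.989, 0 of 5 at an unadjusted p under 0.05) and 0 of 5 in DESeq2, and edgeR called none without primordial NTY replicate 3 either. Of all 10522 genes edgeR called 1 (0.00950%) and DESeq2 1216 (11.6%) in that test. The median log2 fold change of primary against primordial was 1.20 for oocyte and -1.39 for granulosa markers in NTY and -0.63 and 2.15 in sham, with none called by edgeR (0 and 0 at an unadjusted p under 0.05 in NTY, 0 and 1 in sham), and their part in the values of the members was not tested.

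By edgeR with TMM, Gdf9 and Bmp15, but not the zona genes, differed more between MII oocytes and oocytes of primary follicles than in the comparisons above with all libraries. By DESeq2 Zp2 and Zp3 did so too, but not Zp1. Its log2 fold changes of MII against primary were 2.77 for Zp2 and 3.84 for Zp3 in sham, and 2.85 and 4.10 in NTY. For NTY against sham in primordial follicles they were -2.10 and -2.90. Library method changes together with stage here, which limits this comparison. In sham, Bmp15 was higher in MII by a log2 fold change of 7.03 ± 2.44 (edgeR adjusted p = 0.0461), with 34 to 97 counts in the primary and 4720 to 5543 in the MII libraries. Gdf9 was at 5.60 ± 2.10 (edgeR adjusted p = 0.0587), Zp3 at 2.19 ± 1.69 (0.340), Zp2 at 1.15 ± 1.45 (0.573) and Zp1 at -0.44 ± 1.89 (0.880), the last turning to 1.18 with RLE size factors and with DESeq2 and to 0.46 without primary sham replicate 2. edgeR thus called 1 of 5 members, where it called 23.0% of 15929 genes, and DESeq2 called 4 of 5, all but Zp1, where it called 37.6%. The edgeR share is not stable, since its 3660 genes were 97 to 201 when a library was left out. By TPM every MII sham library exceeded every primary sham library for Bmp15, Gdf9 and Zp3, 3 of 5 members, as it did for 41.4% of genes. The Bmp15 call was lost without any 1 of the 6 libraries compared, at adjusted p values from 0.0897 to 0.127 over these fits and from 1.64e-06 to 0.127 over all alternatives. Its log2 fold change was 6.944 to 7.235 over the fits with a library left out.

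In NTY, Bmp15 was higher in MII by 8.27 ± 2.58 (edgeR adjusted p = 0.0276). Gdf9 was at 5.48 ± 2.08 (edgeR adjusted p = 0.0528), Zp3 at 2.68 ± 1.72 (0.215), Zp2 at 1.48 ± 1.46 (0.428) and Zp1 at 0.42 ± 1.89 (0.887), the last turning to -0.14 without primary NTY replicate 1 and to -0.07 without primary NTY replicate 2. edgeR called 1 of 5 members against 30.6% of 15929 genes, and DESeq2 called 4 of 5, all but Zp1, against 47.4%. The 4882 genes called by edgeR were 426 to 2782 when a library was left out. Every MII NTY library exceeded every primary NTY library for 4 of 5 members, all but Zp1, and for 35.7% of genes. The Bmp15 call held at an adjusted p of 0.0463 without MII NTY replicate 1 and was lost without any other of the 6 compared (0.0512 to 0.0740), within a range of 6.61e-08 to 0.0740 over all alternatives. With a library left out its log2 fold change was 7.698 to 9.099. The log2 fold changes rest on the scaling, because the median of all genes was 0.84 in sham and 1.51 in NTY with TMM and 2.46 and 2.93 with RLE size factors, a shift of 1.62 and 1.42. Calls over all genes were 2789 higher and 871 lower in sham and 3528 and 1354 in NTY, against 4260 and 540 and 5087 and 1006 with RLE size factors.

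**Figure D3:**
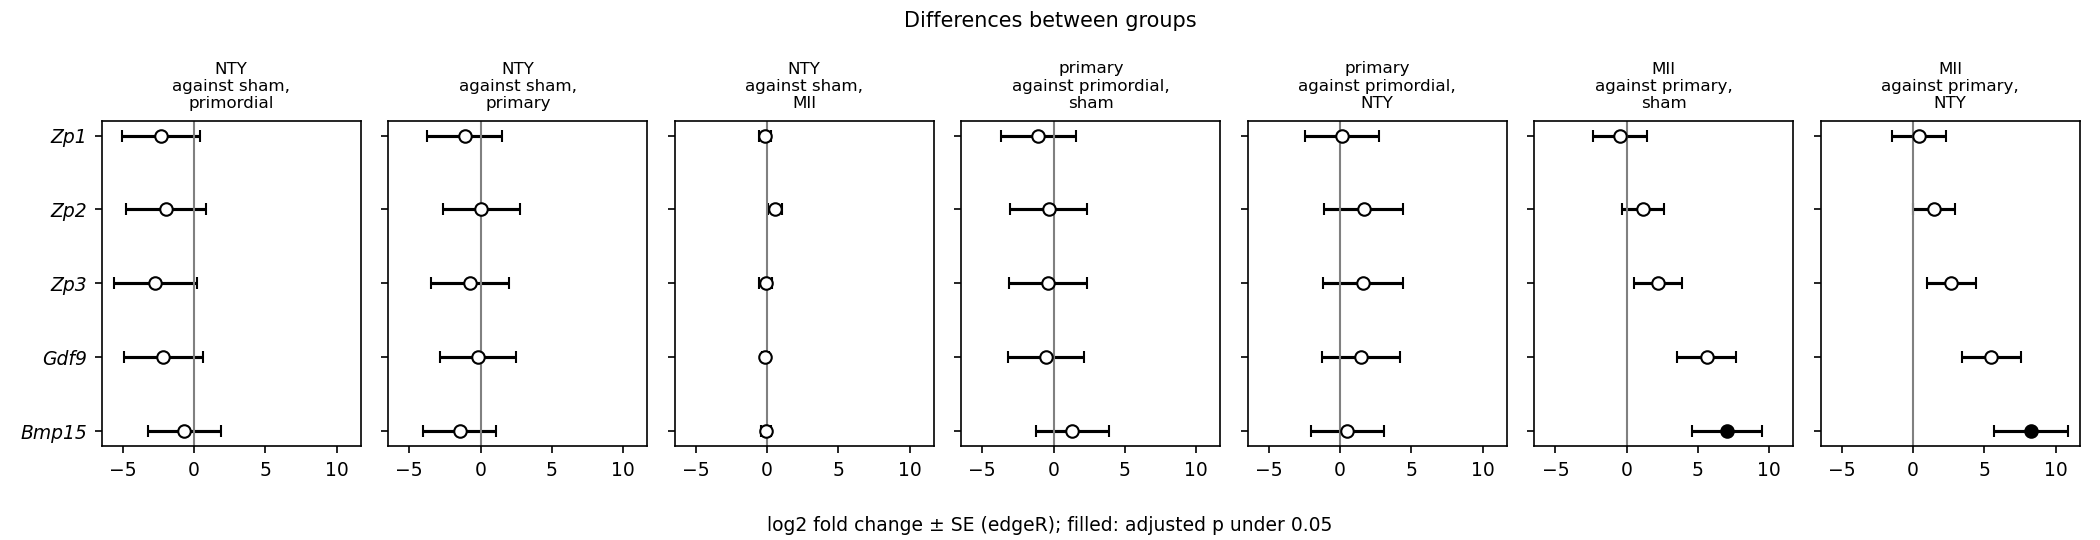
Log2 fold change of each of the 5 genes in 7 comparisons, with points for the edgeR estimate, error bars of 1 SE, a line at 0 and filled points at an adjusted p under 0.05. Only Bmp15 in MII against primary follicles is filled, at 7.03 in sham and 8.27 in NTY, and the errors are smallest for NTY against sham in MII.

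Relative to the median of 12 microdissected libraries, the median of the 6 MII libraries was 1.52 times as high for Zp1, 5.07 times for Zp2, 12.8 times for Zp3, 96.4 times for Gdf9 and 460.5 times for Bmp15 by TPM. The genes thus took different places between these sets of libraries, with the growth factors farthest apart and Zp1 closest together.

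The levels of the 5 genes moved together to different degrees over the 12 microdissected libraries. As a description of libraries that share depth and amplification, Pearson's r of log2(CPM + 1) was 0.93 between Zp2 and Zp3, 0.92 between Gdf9 and Bmp15, 0.91 between Zp3 and Gdf9 and 0.80 between Zp1 and Zp3, and 0.59 between Zp1 and Gdf9 (Spearman's rho 0.92, 0.83, 0.89, 0.78 and 0.58). Primordial sham replicate 1 shows how Zp1 went apart from the rest, with 2599 counts of Zp1 beside 126 of Zp2, 121 of Zp3, 32 of Gdf9 and 0 of Bmp15. It is 1 library, with the fewest genes with a count of the 12 (6147) and an oocyte marker sum of 48.9 TPM. Among 6431 other genes, those most like Zp1 were Tln2 (r = 0.92), Dtx2 (0.91) and Parp12 (0.90). For Zp2 they were Gyg (0.98), Nlrp14 (0.95) and Uchl1 (0.93), and for Zp3 they were Epn2 (0.97), Nlrp14 (0.93) and Gyg (0.92). For Gdf9 they were Phlpp2 (0.97), Slc45a3 (0.96) and Klhl8 (0.95), and for Bmp15 Eif4e1b (0.93), Slc45a3 (0.93) and Sall4 (0.93). Zp2 and Zp3 thus shared 2 of their 3 nearest genes, Gdf9 and Bmp15 shared 1, and Zp1 shared none with the other members.

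The genes known to act with these members were described from 4 lists, of which 36 genes were matched. In the 6 comparisons within a library method edgeR called none of the 26 to 29 that could be tested, with 0 to 4 at an unadjusted p under 0.05. In primordial follicles DESeq2 called 6 of 29 higher in NTY, namely Acvr2a, Tgfbr1, Bmpr1a, Smad1, Slc38a3 and Pfkp, where it called 11.4% of all genes. In primary follicles it called 2 of 29 lower, Slc38a3 and Pfkp, beside 6.59% of all genes. DESeq2 called 0 of 26 in MII oocytes, 4 of 29 higher in primary than in primordial sham follicles (7.29% of all genes called), 3 of 29 lower in NTY (10.7%), and 3 of 29 for the difference of the NTY effect (11.6%).

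The oocyte transcription factors Figla, Nobox, Lhx8, Sohlh1, Sohlh2 and Taf4b, of which Figla is known to drive the zona genes, summed to 1.35 to 188 TPM in the microdissected and 115 to 356 TPM in the MII libraries. Lhx8 was the most abundant in 10 of the 12 microdissected libraries and Nobox in all 6 MII libraries. Figla itself was low, with a median of 1.67 TPM (0 to 5.20) in the microdissected and 1.27 TPM (0 to 11.6) in the MII libraries. In MII against primary follicles edgeR called 1 of 6 higher in sham, Nobox, where it called 23.0% of all genes, with a list median log2 fold change of 0.41 beside 0.84 over all genes. In NTY, where it called 30.6% of all genes, it called Sohlh2 higher and Sohlh1, which was at 0 in the 3 MII NTY libraries, lower (adjusted p = 0.0498), with a median of -0.52 beside 1.51. DESeq2, which called 37.6% of all genes in sham and 47.4% in NTY, called Nobox and Sohlh2 higher and none lower in both. Its median in NTY had the other sign (0.83). Sohlh2 was at 0 in 6 of the 12 microdissected libraries and at most at 1.54 TPM there, and entered the test through the MII libraries. Sohlh1 entered it through the microdissected libraries. The direction of the calls of both was set beforehand.

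Among other oocyte genes of the egg coat and of secretion, Oosp1, Oosp2 and Oosp3, which encode secreted oocyte proteins, were higher in MII in both treatments and were the 3 of 8 that edgeR called, where it called 23.0% of all genes in sham and 30.6% in NTY. DESeq2 called 6 of 8 higher in sham, these with Astl, Izumo1r and Zar1, and 7 of 8 in NTY, with Cd9 added, where it called 37.6% and 47.4% of all genes. Oosp1 was at 3734 to 6780 TPM in the MII libraries, close to Gdf9, and at 0 to 7.32 TPM in the microdissected ones. Oosp2 and Oosp3 were each at 0 in 9 of the microdissected libraries, and at most at 0.346 and 0.352 TPM there. Oosp2 and Oosp3 thus entered the test only through the MII libraries. The direction of their calls in edgeR and DESeq2 was set beforehand, and these calls decide nothing. Astl, which encodes the protease that cleaves Zp2 after fertilization, was at 117 to 275 TPM in MII and 0.0607 to 149 TPM in the microdissected libraries, and DESeq2 called it higher in MII in both treatments while edgeR did not (adjusted p 0.221 in sham and 0.219 in NTY). The list median was 3.42 in sham and 4.46 in NTY, beside 0.84 and 1.51 over all genes.

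Receptors and SMADs of the pathway by which granulosa cells receive Gdf9 and Bmp15 were lower in MII in part. Of 13 tested, edgeR called 3 lower in MII sham (Bmpr2, Smad4 and Smad7) and 4 lower in MII NTY (these and Smad5), with list medians of -2.85 and -4.44, while 871 and 1354 of all 15929 genes were called lower. Others were not called, among them Bmpr1b (1.39 in sham, 1.93 in NTY) and Smad1 (1.43 and 1.86). DESeq2 called Bmpr2, Smad6 and Smad7 lower in sham, without Smad4, and 8 of 13 lower in NTY, with list medians of -1.22 and -3.29, while it called 1317 and 1999 of all genes lower. Bmpr2, the type II receptor of both factors, was at 26.5 to 358 TPM in the microdissected and 3.37 to 13.7 TPM in the MII libraries. Of 11 follicle cell genes known to answer to the factors, 9 were matched and 6 tested. edgeR called Grem1 higher and Amh and Slc38a3 lower in sham, and Grem1 and Pfkp higher and Amh and Ldha lower in NTY, with list medians of -3.13 and -0.48, the latter at 1.60 in DESeq2. Grem1 was at 0 counts in all 12 microdissected libraries and at 0 to 3.03 TPM in MII, and Has2 was at 0 in the same 12 and in 4 of the 6 MII libraries. Grem1 thus entered the test only through the MII libraries. The direction of its calls was set beforehand, and they decide nothing. Of 10 granulosa markers edgeR called 6 lower and 1 higher, Cyp19a1, in MII in each treatment, and of 6 stroma and theca markers it called 4 lower in sham and 5 in NTY. DESeq2 called the same granulosa markers, with Fshr also higher in sham, and 5 of 6 stroma and theca markers lower in each treatment. Cyp19a1 and Fshr were at 0 in 11 and 10 of the 12 microdissected libraries, and they too entered the test through the MII libraries. Each granulosa marker called lower except Inha, and every stroma and theca marker, passed the filter through the microdissected libraries alone. So did Smad6, Smad7, Slc38a3 and Ldha. The direction of the lower calls of these genes was set beforehand, and such calls decide nothing. Wt1 and Foxl2 were at 0 counts in all 6 MII libraries, whereas Cyp19a1 was at 16.2 to 41.4 TPM, Kitl at 1.34 to 7.99 TPM and Inha at 0 to 25.6 TPM there. The part of other cells in the results on the members was not tested.

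Among the other markers edgeR called 1 of 8 oocyte genes higher in MII sham, Nobox, and 1 lower in MII NTY, Sohlh1, where it called 23.0% and 30.6% of all genes, with list medians of 0.74 and 0.61 beside 0.84 and 1.51 over all genes. Nobox in MII NTY was at 4.17 ± 1.58 (edgeR adjusted p = 0.0517). DESeq2 called Nobox and Sycp3 higher and none lower in both treatments, where it called 37.6% of all genes in sham and 47.4% in NTY. Of 3 endothelial markers it called Pecam1 higher in both, at 36.8 to 61.7 TPM in MII and 0 to 0.399 TPM in the microdissected libraries, while Cdh5 was at 0 in all 6 MII libraries. Pecam1 entered the test through the MII libraries. The 3 blood markers could not be tested and summed to 0 to 0.755 TPM in MII and 0 to 174 TPM in the microdissected libraries, the highest being Hba-a1 in primary sham replicate 1. In the 6 comparisons within a library method edgeR called none of the 12 to 24 markers tested, with 1 to 3 at an unadjusted p under 0.05, and DESeq2 called Inha higher in primordial NTY and Cdh5 lower in primary than in primordial NTY.

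The 5 genes lie on different chromosomes of GRCm38. GENCODE M21 places Zp1 at chr19:10914287-10920632 on the minus strand, Zp2 at chr7:120126772-120145291 on the minus strand and Zp3 at chr5:135980099-135988624 on the plus strand. It places Gdf9 at chr11:53431023-53437904 on the plus strand and Bmp15 at chrX:6314107-6320721 on the minus strand. No other annotated gene overlaps any of the 5 on either strand, so that reads of an overlapping gene do not enter their counts by this annotation. Dtx2, which is among the genes most like Zp1, starts 6175 bases beyond the end of Zp3 on the same strand. The exons cover 1981 bases in Zp1, 2724 in Zp2, 1323 in Zp3, 2031 in Gdf9 and 3060 in Bmp15, and the deposited TPM rest on lengths in the same proportions.

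Promoter windows of 300 bases were matched for 2 of the 5 members, Zp3 and Bmp15, and are shown because these are a zona gene and a growth factor gene; no window of Zp1, Zp2 or Gdf9 was used here. Motifs searched on both strands were CANNTG (the E-box, which Figla is known to bind), TAATTG (the NOBOX element) and TGATTG (the LHX8 element), which 72.3%, 8.0% and 14.04% of 32851 windows hold. Zp3 had 4 E-box matches, beginning at bases -181, -134, -55 and 7 from the start, and Bmp15 had 1 E-box match at base -201 and 1 LHX8 element match at base -45. TAATTG was in neither window. A match is a description of letters and not of binding. The 250 bases before the start, from RefSeq on GRCm38.p6, are given with the matches that lie in them in capitals (3 of the 4 in Zp3), at chr5:135979855-135980104 on the plus strand for Zp3 and at chrX:6320725-6320974 on the minus strand for Bmp15.
Zp3: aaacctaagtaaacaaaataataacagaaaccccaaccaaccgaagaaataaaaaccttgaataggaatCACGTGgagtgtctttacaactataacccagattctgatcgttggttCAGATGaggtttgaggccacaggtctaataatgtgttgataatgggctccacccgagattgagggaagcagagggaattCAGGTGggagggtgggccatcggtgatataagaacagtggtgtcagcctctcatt
Bmp15: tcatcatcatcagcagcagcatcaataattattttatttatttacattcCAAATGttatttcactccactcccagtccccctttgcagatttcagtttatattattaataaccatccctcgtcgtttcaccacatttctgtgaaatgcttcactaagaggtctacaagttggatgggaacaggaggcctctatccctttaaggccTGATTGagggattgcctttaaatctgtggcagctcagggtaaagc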

How the data were processed

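Members and gene lists were chosen with earlier results of these data known. The authors deposited raw counts and TPM, joined here by Ensembl identifier. The notes of the submitters name Trim Galore 0.4.1, TopHat2, featureCounts and mm10. Tests used edgeR 4.0.16 (R 4.3.3; robust quasi-likelihood, TMM, filterByExpr by group), with Benjamini-Hochberg adjustment over all genes tested and a threshold of 0.05. The 12 microdissected libraries shared a fit, the 6 MII libraries another, and all 18 were fitted for MII against primary follicles. Standard errors were the log2 fold change divided by the square root of F. Alternatives were RLE size factors, DESeq2 1.42.0 (no Cook or independent filtering), no filter on low counts, a replicate block and leaving out each library. Ratios were also taken from counts and with a pseudocount of 1. Named were members, 4 lists of related genes, 5 marker lists and, for each member, the 3 genes with the highest Pearson r (mean of at least 10 CPM, a count in at least 6 of 12 libraries). Ptx3, whose symbol was not matched, and Aldoa, whose symbol fits more than 1 identifier, were left out of the list counts. Other work was done in scipy 1.17.1 and pandas 2.3.3 under Python 3.11.15.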

Additional observations from a re-analysis of the deposited data

How the results depend on the processing

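None of the 5 genes passed the threshold in any of the 6 comparisons within a library method under any alternative run. In MII against primary sham, where edgeR called 1 member and 3660 genes, RLE size factors called 2 members, DESeq2 4 members and 5995 genes, no filter 0 members and 1720 genes, and the replicate block 0 members and 1714 genes. In NTY, where edgeR called 1 member and 4882 genes, RLE size factors called 2 members, DESeq2 4 members and 7553 genes, and the replicate block 1 member and 2770 genes. With no filter Bmp15 was called in NTY, at an edgeR adjusted p of 0.0416, and no other member was. Leaving out a library gave 0 members and 97 to 201 genes in sham, and 0 to 1 members and 426 to 2782 genes in NTY. In the 6 comparisons within a method edgeR called 0 or 1 gene, whereas DESeq2 called 1201 (NTY, primordial), 693 (NTY, primary), 29 (NTY, MII), 767 (stage, sham), 1121 (stage, NTY) and 1216 (difference). The cause was not tested. Same-numbered libraries did not deviate together (correlation -0.08 to 0.08 over 21 pairs), so the numbers were not taken to pair libraries. The block turned Zp3 to 0.65 and Gdf9 to 3.35 in primary against primordial sham. RLE size factors and DESeq2 turned Gdf9 to 0.23 in primary NTY against sham and Zp1 to 1.18 in MII against primary sham.

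Of 35 member log2 fold changes, those of the difference of the NTY effect left out, 21 kept their sign under every alternative. The other 14 changed sign when a library was left out, over these ranges. For NTY against sham these were Gdf9 (-6.69 to 3.995) and Bmp15 (-7.45 to 1.95) in primordial follicles, Zp2 (-0.54 to 0.39) and Gdf9 (-1.08 to 0.39) in primary follicles, and Zp1 (-0.44 to 0.21), Zp3 (-0.41 to 0.19) and Bmp15 (-0.32 to 0.19) in MII. For primary against primordial they were Zp2 (-0.75 to 0.72), Zp3 (-0.92 to 1.95) and Gdf9 (-1.19 to 5.58) in sham, and Zp1 (-3.25 to 4.34) and Bmp15 (-0.38 to 7.28) in NTY. For the difference of the NTY effect the left-out ranges also crossed 0 for Zp1 (-2.19 to 5.39), Zp3 (-0.37 to 4.10), Gdf9 (-4.12 to 6.51) and Bmp15 (-3.38 to 5.95). For MII against primary the changes were Zp1 in sham (-0.82 to 0.46) and in NTY (-0.14 to 3.71). The log2 ratios within MII libraries, NTY minus sham, ran from -0.39 to 0.31 for Zp1 to Zp3 and from -0.33 to 0.29 for Bmp15 to Gdf9 and kept their sign for Zp2 to Zp3.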
